A study of Mus musculus with 65 samples.

Results

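This is an account of the TAL1-occupied sites that overlap a CTCF-occupied site in G1E-ER4+E2 cells, as called by ChIP-seq. Peaks of the 10 TAL1 lists assessed as Pass that touched by 1 bp or more were joined into sites, and a site had to be called in 5 or more lists. The 14 Pass lists of CTCF in the same cells were joined likewise, with 7 or more lists required. Of 4568 TAL1 sites, 232 (5.08%, 95% Wilson interval 4.48 to 5.75%) shared at least 1 bp with one of 13977 CTCF sites, and of those CTCF sites 235 (1.68%) were involved, in 236 pairs. The sites were thus chosen by the calls of both factors in the Pass lists, and the overlap, the ranks and the list numbers that follow are descriptions with no test.

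G1E-ER4 is a mouse erythroid line derived from embryonic stem cells that lacks GATA1 and carries a GATA1 fusion activated by estradiol, and E2 marks 24 hours with 1e-08 mol/L of β-estradiol, a treatment that every library of the line shares. The line has 19 TAL1 lists (10 Pass, 4 Low pass and 5 Fail, by the submitters' inspection) and 23 CTCF lists (14 Pass, 2 Low pass and 7 Fail). CTCF was also mapped in bone marrow cells sorted from male C57BL/6 mice 5 to 8 weeks old, with 3 erythroid lists (1 CFUE, 2 ERY) and 8 others (2 LSK, 1 CMP, 1 GMP, 1 MEP, 1 CFUMk, 2 iMk). CFUE and ERY are erythroid cells carrying Ter119, sorted for high and for low forward scatter, LSK holds the stem cells, CMP, GMP and MEP are myeloid, granulocyte-monocyte and megakaryocyte-erythroid progenitors, and CFUMk and iMk are megakaryocyte progenitors and immature megakaryocytes. The CMP and GMP libraries carry the assessment Low Pass. TAL1 in the sorted cells was not analysed here. Each list comes from 1 library.

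Lists hold 193 to 36481 peaks, and the depth behind them is unknown because peak lists give no read totals. Libraries were taken as replicates, and p-values measure the spread between libraries. The libraries differ in sonication and in the number of cells, and some earlier TAL1 and CTCF libraries of the line in fixation. The paper's pilot CTCF libraries with few cells of the line were grouped with the others by assessment alone. TAL1 Pass replicate 10 (221 bp mean chromatin length) is titled TAL1 while its antibody label names CTCF. Of its peaks 4.28% lay at CTCF sites, within the 3.97 to 4.85% of the 10 Pass lists. Without that list, and with 5 lists still required, there were 221 overlapping sites. Each of these lies among the 232 by construction, since leaving out a list can only remove calls.

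TAL1 is a basic helix-loop-helix protein that red cell precursors need. It binds DNA in a complex with GATA1, LMO2 and LDB1, often at a GATA site with part of an E-box in front of it, and many of its sites are enhancers or promoters of erythroid genes. CTCF is a zinc finger protein that binds a long motif of its own, sits at insulators and at the anchors of chromatin loops formed with cohesin, and is bound at many of the same places in different cell types.

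The sequences shown first are the 5 overlapping sites where the best CTCF match and a TAL1-GATA match lie closest together. The CTCF match is the best window of a 19 bp matrix whose most frequent bases are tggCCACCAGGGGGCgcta, and the TAL1-GATA match is CTGNNNNNNNNAGATAA, both sought on both strands. Each line is the plus strand of GRCm38 from one match to the other, with both matches in capitals.
Il12rb2, chr6:67318706-67318754: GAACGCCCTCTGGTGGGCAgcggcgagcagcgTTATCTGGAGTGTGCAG
Rpia, chr6:70709873-70709937: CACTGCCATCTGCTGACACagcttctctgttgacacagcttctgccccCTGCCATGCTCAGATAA
Pde4d, chr13:109907784-109907853: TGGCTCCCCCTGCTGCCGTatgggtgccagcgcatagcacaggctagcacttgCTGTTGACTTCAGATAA
4930523C07Rik, chr1:160062093-160062199: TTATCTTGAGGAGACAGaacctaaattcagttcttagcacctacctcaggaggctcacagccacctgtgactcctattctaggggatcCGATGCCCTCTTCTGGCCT
Fignl1, chr11:11812052-11812160: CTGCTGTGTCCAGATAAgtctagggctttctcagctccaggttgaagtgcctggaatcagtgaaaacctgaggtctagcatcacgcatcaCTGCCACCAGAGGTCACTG
The CTCF match comes first on the plus strand in Il12rb2, Rpia and Pde4d and the TAL1-GATA match in 4930523C07Rik and Fignl1. The gap between the matches is 13 bp in an intron of Il12rb2, an interleukin 12 receptor chain. It is 29 bp in the intergenic site nearest to Rpia, whose start is 82590 bp away, and 34 bp in an intron of Pde4d, a cyclic AMP phosphodiesterase. The gap is 71 bp in an intron of 4930523C07Rik and 73 bp in the intergenic site 3081 bp from the start of Fignl1. Such closeness was not typical: 30 of the 232 sites held both matches, with a median gap of 452 bp and a highest gap of 1786 bp.

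Since the rule asks for only 1 shared bp, the middles of overlapping sites can lie about as far apart as the sites are wide. The distances below follow in part from that rule. The middles of the TAL1 and CTCF peaks lay a median of 511 bp apart (lower quartile 241 bp, upper quartile 769 bp, highest 1489 bp). Only 25 sites (10.8%) had middles within 100 bp of each other, while 115 (49.6%) had them within 500 bp. The overlapping sites and the other TAL1 sites had nearly the same median width, 1040 bp against 1027 bp. The shared stretch had a median of 587 bp and a range of 1 to 1641 bp.

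**Figure D1:**
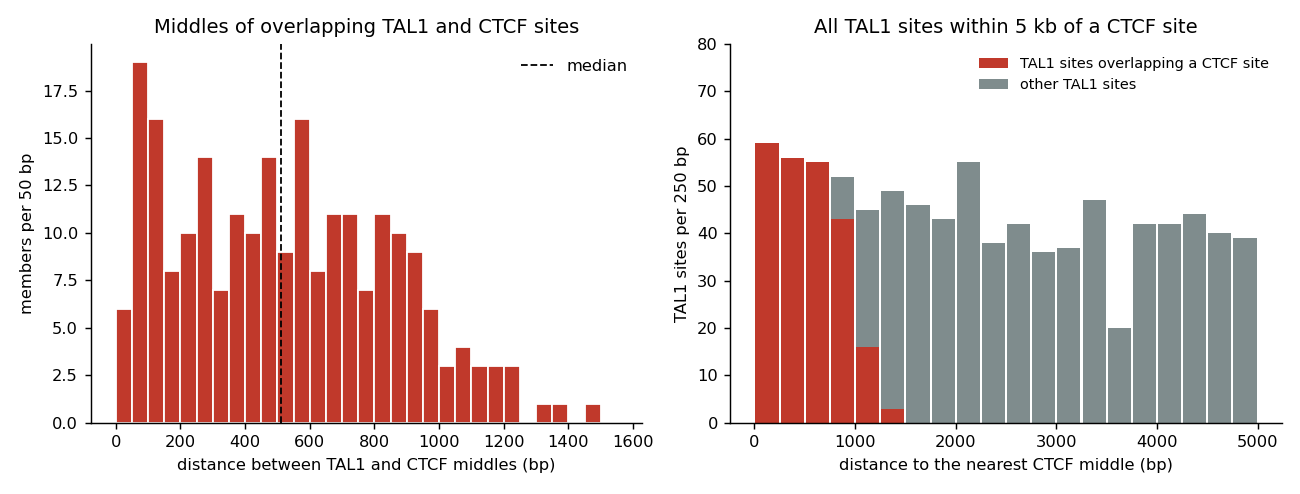
Left, number of overlapping sites per 50 bp of distance between the TAL1 and CTCF middles, with the median of 511 bp dashed. Right, all TAL1 sites within 5 kb of a CTCF middle per 250 bp, overlapping sites in red and other TAL1 sites in grey, with 59 sites in the first bin and a slow decline outward.

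Counted over all TAL1 sites, the number whose nearest CTCF middle lay in a given 250 bp declined slowly with distance. It was 59 in the first 250 bp, then 56, 55 and 52. Between 1 and 2 kb it averaged 45.8 for each 250 bp, from 2 to 5 kb 40.2, and from 5 to 10 kb 27.7. CTCF sites covered 2.68% of the bases of TAL1 sites and 0.539% of the genome. The rule therefore cuts through a broader neighbourhood, and sites on either side of it can be almost the same distance apart. Just inside it, the site in an intron of Ece1 (nearest start Eif4g3) shared 1 bp with its CTCF site, that in Thap4 18 bp and that in Atxn7l1 20 bp. Just outside, the TAL1 sites nearest to Mtf1, Vdac1 and Chd3 lay 4, 5 and 9 bp from a CTCF site, each of these called in all 14 CTCF Pass lists.

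By annotation, the middle of the TAL1 peaks lay within 1000 bp of a transcript start, taken as a promoter, at 46 of the 232 overlapping sites (19.8%), against 559 of 4336 other TAL1 sites (12.9%) and 13.2% of all TAL1 sites. Introns held 91 overlapping sites (39.2%) against 57.6% of the others, and 81 (34.9%) lay between genes against 25.2%. UTR exons held 9, coding exons 3 and exons of noncoding genes 2. The middle of the CTCF peaks lay at a promoter for 41 of 235 CTCF sites (17.4%), against 12.2% of other CTCF sites and 12.3% of all. At 36 of the TAL1 sites both middles were at a promoter, with TAL1 nearer to the start in 19 and CTCF nearer in 17. Only 5 overlapping sites (2.16%) lay mostly in repeats, against 3.85% of the others. The sites fell on 20 chromosomes, from 23 on chromosome 7 and 20 each on chromosomes 2 and 11 to 1 on chromosome X.

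Motif content differed between the middles of the TAL1 and CTCF peaks. In the 300 bp around the TAL1 middle, a CTCF matrix match (p of 0.0001 a position) was present at 49 overlapping sites (21.1%), against 6.13% of other TAL1 sites and 6.9% of all. Each overlapping site touches a CTCF site by the rule, and 41 (17.7%) had middles within 150 bp. The larger share of CTCF matches thus follows in part from the choice of sites. The consensus CCANNAGNNGGC alone was present at 16 (6.9%), against 1.73% and 1.99% of all. The TAL1-GATA match was found at 23 (9.91%), against 12.6% of the others and 12.5% of all. Another pattern, CTGNNNNNNNGATA or CTGNNNNNNNNGATA, was found at 55 (23.7%), against 23.6% of the others and 23.6% of all. It sets GATA closer to CTG than the TAL1-GATA match does, so it is not a looser form of that match. AGATAA, which the full TAL1-GATA match contains, was present at 113 (48.7%), against 54.8% of the others and 54.5% of all.

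In the 300 bp around the CTCF middle, a CTCF matrix match was present at 210 of the 235 overlapped CTCF sites (89.4%), against 93.0% of other CTCF sites and 92.9% of all. The TAL1-GATA match was there in 5 (2.13%), against 0.175% of the others and 0.207% of all, and AGATAA in 39 (16.6%), against 13.1% of the others and 13.2% of all. These CTCF sites touch a TAL1 site by the rule, so such differences also follow in part from the choice. Over its whole CTCF interval, 220 overlapping sites (94.8%) held a CTCF match, and the TAL1 middle lay a median of 495 bp from it. Along the strand of that match, the TAL1 middle was on its 3′ side in 127 sites and on its 5′ side in 93. In no site did the TAL1 middle fall within 10 bp of the centre of the CTCF match.

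Strength is given as a percentile rank within each list, with 100 for the strongest peak by −log10 p. The rank of a site is the median over its peaks in the Pass lists that called it. Lists without a call add no rank, so sites called in few lists can rank too high. The overlapping sites had a median TAL1 rank of 56.6 (range 12.9 to 99.7), against 54.1 for other TAL1 sites. The median CTCF rank of their CTCF sites was 60.3 (range 6.95 to 99.97), against 51.3 for other CTCF sites. Across the 232 sites the ranks of both factors were unrelated (Spearman's rho −0.05, n = 232 sites of the same libraries). All 10 TAL1 Pass lists called 102 overlapping sites (44.0%), against 40.9% of the others and 41.1% of all TAL1 sites. At the edge of the rule, 28 were called in just 5 TAL1 lists, and 14 had a CTCF site called in just 7 lists. Both factors were called in every Pass list at 47. Shares of all TAL1 and all CTCF sites at the same list numbers are not given here. The counts at the edge and in every list therefore do not set the overlapping sites apart from sites in general.

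**Figure D2:**
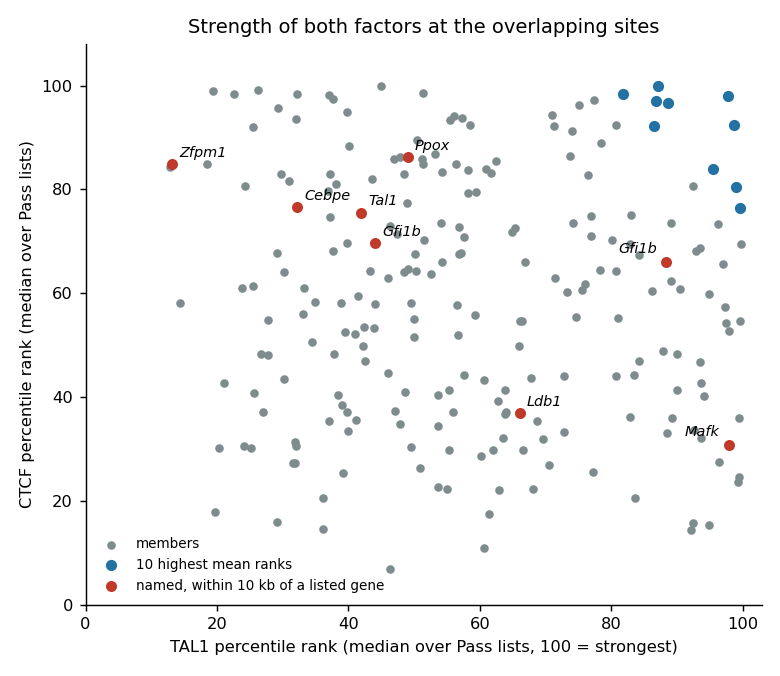
Median percentile rank of TAL1 (horizontal) against that of CTCF (vertical) for the 232 overlapping sites, with the 10 highest mean ranks in blue and named sites within 10 kb of a listed gene in red. The points fill the plane without a trend, and Mafk (97.9 for TAL1, 30.7 for CTCF) lies at the lower right.

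The 10 sites with the highest mean of both ranks were by choice strong for both factors. CTCF was called at each in 3 of 3 erythroid and 8 of 8 other primary lists, as at 23.3% of all CTCF sites. In the strongest of 4 equal rank classes, the CTCF sites without TAL1 had a mean of 77.7% called in the erythroid lists and 98.4% in the others. The first of the 10 was an intergenic site 8268 bp from the start of Ccdc9, chr7:16294439-16295660, with a TAL1 rank of 97.8, a CTCF rank of 98.0 and middles 284 bp apart. Its TAL1 fold enrichment over background was 36.0 to 104 in the 10 Pass lists (median 57.7) and 17.5 to 40.3 in the 4 Low pass lists (median 28.5). Its CTCF fold enrichment was 20.4 to 60.1 in the 14 Pass lists (median 23.1). Folds are the authors' values and depend on the depth of each library, so only ranks were compared between lists. At the site 2196 bp from Ptma, the prothymosin alpha gene, the TAL1 rank was 98.7 and the CTCF rank 92.5, with middles 1022 bp apart. The intergenic site 3921 bp from Hectd4 had ranks of 99.6 and 76.4. The others were nearest to Tpra1, Fads3, Dus3l, Rab11fip3, Ap5s1, Vwa7 and Ccdc97, with TAL1 ranks of 81.9 to 99.0 and CTCF ranks of 80.4 to 99.97. Of the 10, only the site in an intron of Rab11fip3 had middles within 100 bp, at 80.8 bp.

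Genes were compared through 6 lists of 85 genes, of which 84 were found in the annotation. A gene counts where the site lies in it or within 10 kb of it. Over all 21924 protein coding genes, 326 (1.49%) had an overlapping site, 16.3% a TAL1 site and 43.7% a CTCF site. Among 22 erythroid regulators, 5 had an overlapping site (Tal1, Gfi1b, Zfpm1, Ldb1 and Mafk), 20 a TAL1 site and 15 a CTCF site. Among 27 genes of erythroid products, 2 had an overlapping site, Ppox among them, although 25 had a TAL1 site and 16 a CTCF site. Of 9 granulocyte and monocyte genes, 1 had an overlapping site (Cebpe), and none of the 8 stem and progenitor genes, 8 megakaryocyte genes or 10 cohesin and chromatin loop genes had one. Among genes with any TAL1 site, the share with an overlapping one was 25% of the erythroid regulators, 8.00% of the erythroid product genes and 9.11% of all protein coding genes. These lists hold known TAL1 targets, and the shares are descriptions of the counts.

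The CTCF matches of 5 of these sites and of the Peg3 site are shown because their calls in single lists are described next. Each is the 19 bp match in its own orientation, with the 12 bases that align to CCANNAGNNGGC in capitals.
Tal1, chr4:115047923-115047941, plus strand: gcaCCAGATGGGGGCacca
Gfi1b, chr2:28622688-28622706, minus strand: ctgCCACTAGATGGCagca
Zfpm1, chr8:122273323-122273341, plus strand: tgaCCACCAGGTGGCagca
Ldb1, chr19:46036687-46036705, minus strand: aggCCAGAAGAGGGTgcca
Mafk, chr5:139804174-139804192, minus strand: cagCCAGCAGGGGGCtgcc
Peg3, chr7:6727401-6727419, minus strand: tggCCACAAGGGGGCatct
Their matrix scores, as log2 odds, were 12.04 at Tal1, 15.1 at Mafk, 15.5 at Peg3, 16.0 at Ldb1, 20.1 at Gfi1b and 21.7 at Zfpm1.

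Mafk encodes a small Maf protein that pairs with the erythroid factor NF-E2. Its site, in a UTR exon of Tmem184a 6999 bp from the nearest Mafk start, had TAL1 folds of 25.4 to 107.7 in the Pass lists and CTCF folds of 6.88 to 18.2 in 7 of 14. The site in an intron of Ldb1, the adaptor of the TAL1 complex, had TAL1 in 10 of 10 Pass lists (fold 9.84 to 32.3) and CTCF in 9 of 14. Its CTCF site was called in none of the erythroid lists and in 4 of the 8 others.

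At Tal1, Zfpm1 and the Gfi1b promoter CTCF had the higher rank. Tal1 itself had an overlapping site 8075 bp from its start, chr4:115047853-115048893, with a TAL1 rank of 41.9 and a CTCF rank of 75.5. TAL1 was called there in 10 of 10 Pass lists (fold 7.16 to 39.3) but in 1 of 4 Low pass and 0 of 5 Fail lists, while CTCF was called in 14 of 14 Pass lists and in all 11 primary lists. Gfi1b, a repressor that red cells and megakaryocytes need, had a promoter site with ranks of 44.1 and 69.7, called for TAL1 in 7 of 10 Pass lists and for CTCF in all 11 primary lists. A second site within 10 kb of Gfi1b, chr2:28597613-28599910, had a TAL1 rank of 88.4, and its CTCF site was called in 2 of 3 erythroid and 6 of 8 other lists. Zfpm1, a cofactor of GATA1, had a site at the very edge of the rule, with TAL1 in 5 of 10 Pass lists (rank 13.2) and CTCF in 14 of 14 (rank 84.8). Ppox, the protoporphyrinogen oxidase of heme synthesis, had ranks of 49.0 and 86.3 at its promoter, and Cebpe, a late granulocyte factor, ranks of 32.2 and 76.6 nearby.

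The overlapping sites were then looked up in the TAL1 lists that the rule did not use. In the 9 Low pass and Fail lists, 19% ± 19.9 of the overlapping sites were called, against 17.6% ± 19.95 of the other TAL1 sites (mean ± SD, n = 9 lists). The difference was 1.40 ± 1.61 percentage points and was positive in 7 of 9 lists (two-sided exact sign-flip permutation p = 0.0352, Benjamini-Hochberg adjusted over 6 tests 0.0703). All 4 Low pass lists called 54 overlapping sites (23.3%), against 18.2% of the others and 18.4% of all TAL1 sites. None of the 4 called 94 (40.5%), against 38.3% and 38.4% of all, and 1 or more of the 5 Fail lists called 24 (10.3%), against 8.97% and 9.04% of all. The difference did not pass after adjustment. In the weakest of 4 equal rank classes of TAL1 sites it had the opposite sign, −1.34 points (exact sign-flip permutation p = 0.0156, not adjusted).

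**Figure D3:**
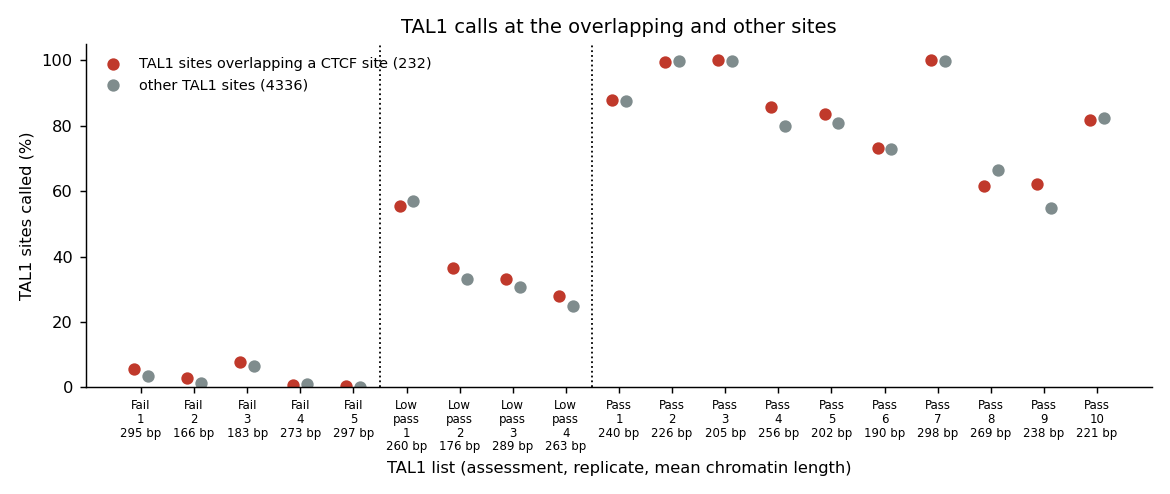
Percent of TAL1 sites called in each of the 19 TAL1 lists, for the 232 overlapping sites (red) and the 4336 other TAL1 sites (grey), in order of assessment, with the mean chromatin length under each list. Red and grey points differ by at most 7.18 points in any list, and the red lie between 0.431 and 7.76% for the overlapping sites in Fail lists and between 28.0 and 55.6% in Low pass lists. The Pass lists were used to choose the sites.

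In the 9 Low pass and Fail lists of CTCF, 12.4% ± 21.1 of the overlapped CTCF sites were called, against 11.5% ± 19.8 of the other CTCF sites (mean ± SD, n = 9 lists). The difference of 0.849 ± 1.32 points was positive in 7 of 9 lists (exact sign-flip permutation p = 0.0234, adjusted 0.0703). It was 2.69 and 3.53 points in the 2 Low pass lists and −0.03 to 0.63 points in the 7 Fail lists. The Fail lists called 0 to 6.38% of the overlapped sites, so some of their signs rest on very few sites. The mean difference did not pass after adjustment and was −0.023 points where TAL1 sites were required in 8 of 10 lists. The share of TAL1 peaks that lay at CTCF sites was 0.490 to 3.78% in the 5 Fail, 3.81 to 4.13% in the 4 Low pass and 3.97 to 4.85% in the 10 Pass lists. As a description with no test, since the Pass lists chose the sites, this share and mean chromatin length had Pearson's r = −0.12 and Spearman's rho = −0.08 across the 19 libraries. Without the 2 lengths farthest from the median r was −0.31, and over the 14 libraries with at least 1000 peaks it was 0.05.

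In sorted cells the overlapped CTCF sites had the larger share of calls in each erythroid list. In CFUE cells CTCF was called at 154 of 235 overlapped sites (65.5%, Wilson interval 59.2 to 71.3%), against 44.7% of the other CTCF sites and 45.1% of all. In ERY replicate 1 it was called at 140 (59.6%, interval 53.2 to 65.6%), against 44.2% and 44.4% of all. In ERY replicate 2 it was called at 137 (58.3%, interval 51.9 to 64.4%), against 37.0% and 37.3% of all. The overlapped sites were thus called 15.4 to 21.3 points more often in each of the 3 erythroid lists.

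The 8 other lists gave differences of −6.95 to 3.11 points. The LSK lists called 79.1 and 89.8% of the overlapped sites, against 86.1 and 93.2% of the other sites (86 and 93.2% of all). The GMP list called 84.3% against 88.8% (88.7% of all), the CFUMk list 96.6% against 99.0% (99% of all), and the iMk lists 85.5 and 86.8% against 89.8 and 89.6% (89.7 and 89.5% of all). In these 6 lists the overlapped sites had the lower share. MEP had 75.3% of both (75.3% of all), and CMP 74.9% against 71.8% (71.8% of all).

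**Figure D4:**
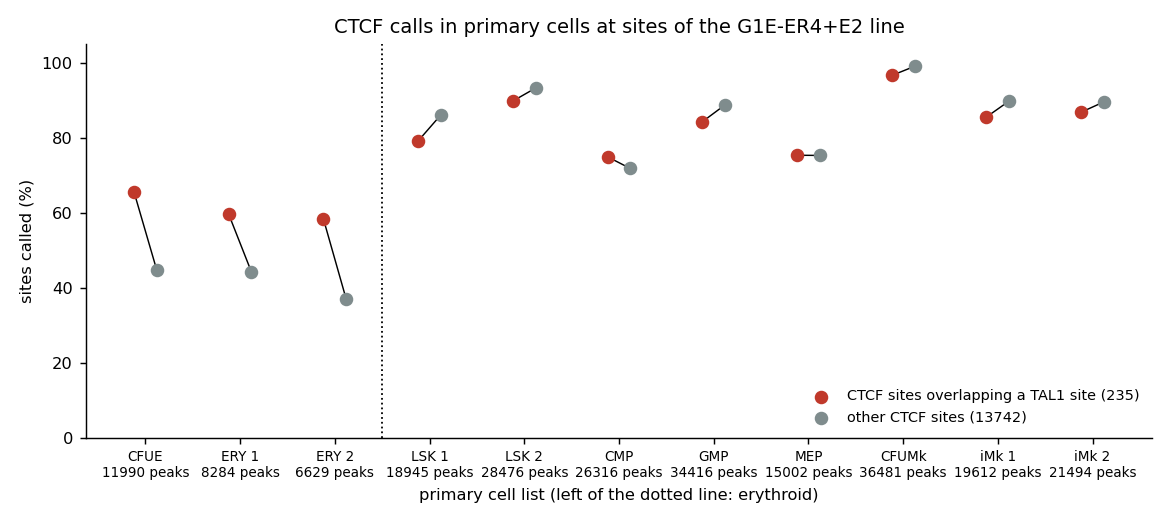
Percent of CTCF sites of the G1E-ER4+E2 line called in each primary list, for the 235 sites overlapping a TAL1 site (red) and the 13742 others (grey), with the number of peaks in each list. The red points lie above the grey in the 3 erythroid lists left of the dotted line, by 15.4 to 21.3 points.

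The difference between overlapped and other sites averaged 19.2 ± 3.29 points in the 3 erythroid lists and −2.65 ± 3.06 points in the 8 other lists, a gap of 21.8 points (mean ± SD, exact permutation of lists, two-sided p = 0.0121, adjusted 0.0703). That p is the smallest that 3 lists against 8 can give, and it did not pass after adjustment. Over all 11 lists the overlapped sites were called in 77.8% ± 12.5 and the others in 74.5% ± 22.3 (difference 3.30 ± 10.6 points, positive in 5 of 11, exact sign-flip permutation p = 0.308, adjusted 0.461). All 3 erythroid lists called 106 overlapped sites (45.1%), against 25.6% of the others and 26% of all CTCF sites. None of the 3 called 54 (23.0%), against 40.7% and 40.4% of all. All 8 other lists called 136 (57.9%), against 56.5% and 56.5% of all, and all 11 lists called 92 (39.1%), against 23.0% and 23.3% of all. CTCF sites called in all 8 other lists and in no erythroid list numbered 10 (4.26%), against 13.1% and 12.9% of all.

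The erythroid lists were also the shortest, with 6629 to 11990 peaks against 15002 to 36481 in the others. With each list cut to its 6629 strongest peaks, 54.0 to 58.3% of the overlapped sites were called in the erythroid lists, against 34.3 to 38.8% of the others, and the gap to the other cell types was 17.6 points. CTCF rank moved with it as well. In the strongest of 4 equal rank classes of CTCF sites the mean of the erythroid lists was 92.2% for 77 overlapped sites, against 77.7% for the others. In the next class it was 62.7% for 67 sites, against 47.4%, and in the class after it 40.0% for 50 sites, against 26.9%. In the weakest class it was 26% for 41 sites, against 16.1%. In the lists of the other cell types the overlapped sites had the lower mean in each class. From the strongest class to the weakest, these means were 98.2% against 98.4%, 91.0% against 93.0%, 73.75% against 83.7% and 58.5% against 71.9%. The gap of 23.3 points in the weakest class thus joins a higher erythroid share with a lower share in the other cell types. Away from promoters the erythroid mean was 59.8% for 194 overlapped sites, against 39.7% for the others, and at promoters it was 67.5% for 41 sites, against 58.0%.

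Calls in erythroid lists also varied with distance beyond the overlap. Other CTCF sites with a TAL1 middle less than 2 kb away were called in a mean of 57.3% in the erythroid lists (175 sites), close to the 61.1% of the overlapped sites. At 2 to 10 kb it was 55.0% (1132 sites), at 10 to 50 kb 49.2% (3310 sites) and beyond 50 kb 37.4% (9125 sites). In the 8 other lists the same classes ran from 84.2 to 87.1%. Against only those other CTCF sites that lie within 10 kb of a TAL1 site, the gap between erythroid and other lists was 7.16 points (exact permutation p = 0.0121), in place of 21.8. Overlapped sites with middles less than 250 bp from TAL1 (59 sites) had a mean of 54.8% in the erythroid and 80.1% in the other lists. Those 750 bp or more away (63 sites) had 65.6% and 86.3%. A dependence on the distance between middles was not tested.

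**Figure D5:**
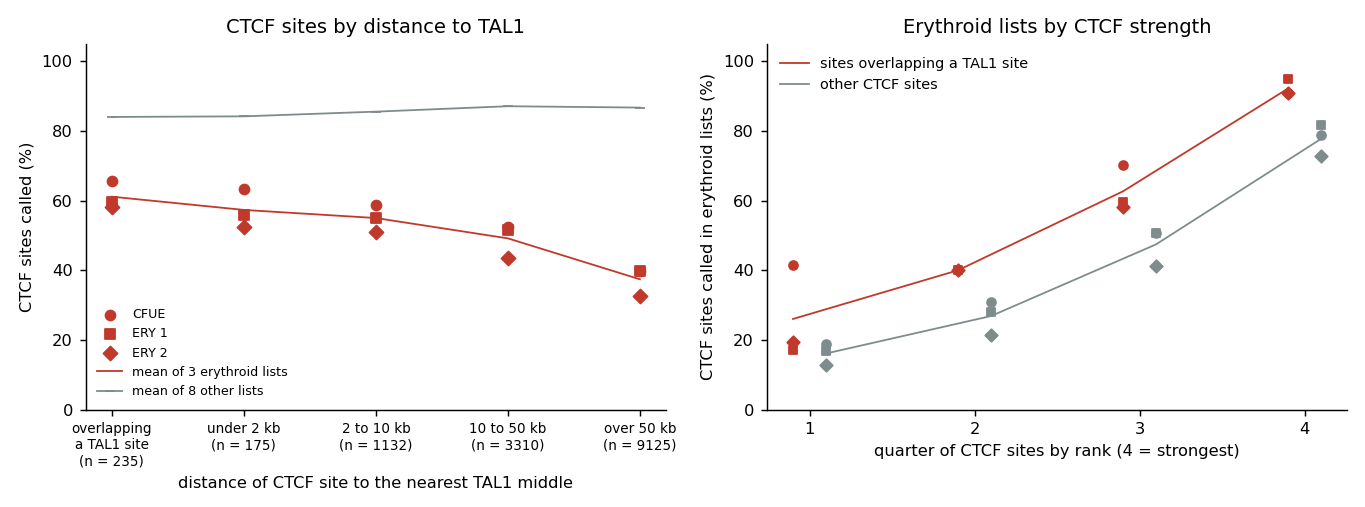
Left, percent of CTCF sites called in the 3 erythroid lists (red symbols, line for their mean) and mean of the 8 other lists (grey), for sites overlapping a TAL1 site and for other sites by distance, from 61.1 to 37.4% in the erythroid mean. Right, the erythroid lists by class of CTCF rank, with overlapped sites in red and others in grey, where the red mean is above the grey in each class.

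Of the 235 overlapped CTCF sites, 0 were called in all 3 erythroid and at most 4 of 8 other lists, which allows a share of up to 1.28%, against 10 of all CTCF sites (0.0715%). The overlapped sites nearest to this, named after their values were seen, were those nearest to Nme3, Cecr2, Cenpu, a centromere protein gene, and Elfn1, each called in 3 of 3 erythroid and 5 of 8 other lists. The site in an intron of Kcnn4, a calcium-activated potassium channel gene, also named after its values were seen, was called in 1 erythroid list and in none of the 8 others. It had a TAL1 rank of 99.2 and a CTCF rank of 23.7, with CTCF in 7 of 14 Pass lists. At the other end, 6 of 235 (2.55%) were called in none of the 11 lists, against 0.655% of the others and 0.687% of all. Of the sites nearest to Rbm38, Pklr, Fem1b, Peg3 and Coch, which were the 5 of highest TAL1 rank among them, Rbm38 and Pklr had low CTCF ranks in the line. Pklr encodes the pyruvate kinase of liver and red cells. Its site had TAL1 in 10 of 10 Pass lists with a median fold of 35.3 and CTCF in 8 of 14 with a median fold of 8.41 and a CTCF rank of 15.8. The Rbm38 site had a TAL1 rank of 94.9 and a CTCF rank of 15.3.

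Peg3 is an imprinted gene expressed from the paternal copy, and its site in an intron, chr7:6728147-6729339, was called for TAL1 in 9 of 10 Pass lists. Its CTCF site was called in 14 of 14 Pass and 2 of 2 Low pass lists of the line, with a fold of 8.70 to 25.95 (median 11.4) and percentile ranks of 85.9 to 96.6 in the Pass lists. No peak was called there in any of the 11 lists of sorted cells, the longest of which has 36481 peaks. The line and the sorted cells differ in origin and in preparation, which cannot be told apart here.

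Conversely, of the 4336 TAL1 sites without a CTCF site in the line, 271 (6.25%) overlapped a CTCF peak in at least 1 primary list. In the erythroid lists 54 (1.25%) did in at least 1, and 2 in all 3. The CFUE list had a peak at 0.830% of these sites, the ERY lists at 0.254 and 0.323%, and the 8 other lists at 0.484 to 4.34%.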

How the data were processed

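Chromatin of G1E-ER4+E2 cells and of sorted mouse bone marrow cells was fixed, sonicated, and immunoprecipitated with antibodies to CTCF or TAL1. The methods give 0.4% formaldehyde, for a longer time in the sorted cells than in the line. Some earlier libraries of the line had another fixation, which the labels do not mark. Reads were aligned by the authors to the mm10 build (GRCm38) using Bowtie, and MACS was run on each library to call peaks. Bowtie 1.0.0 and bcl2fastq 1.8.4 are listed by the submitters' notes, while the methods of the paper give an older Bowtie release. The p cutoff of the peak caller is not given in the sources used here, and no deposited peak has a −log10 p under 5. The deposited fold enrichment is a ratio over background computed by the authors with MACS, and the deposited −log10 of the p-value is theirs as well. Both depend on depth, so they were used to rank peaks within a list, and the deposited FDR was not used. Input samples were not analysed here.

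Lists were merged and overlapped with Python 3.11.15, numpy 2.4.6, pandas 2.3.3 and scipy 1.17.1, and sequence was read from GRCm38 with pyfaidx 0.9.0.4. A site's middle is the median of the middles of its peaks, and each overlapping site was paired with the CTCF site of nearest middle. Genes and parts of genes come from the GENCODE vM21 basic annotation. A nearest gene is that of the nearest transcript start of a protein coding gene. The CTCF matrix (19 bp, 15 rounds, started from matches to CCANNAGNNGGC) was learned on 200 bp windows at the centres of the top 2000 peaks in LSK replicate 2, a list that did not choose the sites. The merging, overlap, motif and permutation steps were tested on simulated data.

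Members, gene lists and tests were chosen with earlier results of these data known. Sites named in the text are the 10 of highest mean rank and those within 10 kb of a listed gene. Also named are the 5 with the closest pair of matches, 3 on each side of the overlap rule, and up to 5 called in no primary list or in erythroid lists alone, by TAL1 rank. Lists of libraries were compared by exact permutation, two-sided, with Benjamini-Hochberg adjustment over 6 p-values (2 of them for chromatin length, given here as a description only), and calls at single sites were not tested. The adjusted values depend on that family of 6, and adjustment without the 2 for chromatin length was not run. One site that this rule names is not reported here. Intervals cover counting error only. Alternatives were other list numbers and overlaps, a −log10 p of at least 10, rank classes, promoter distances, other motif rules and leaving out each library. Those on list length, cell type means, the Low Pass lists and nearby CTCF sites were added after seeing the data.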

Additional observations from a re-analysis of the deposited data

Results flagged for a closer look

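CTCF calls in the erythroid lists and in the other primary lists differed in how overlapped and other CTCF sites compare, with a gap of 21.8 percentage points between the mean differences of 3 and 8 lists (exact permutation p = 0.0121, adjusted 0.0703). It was picked out because the test of the difference between both groups of lists passed before adjustment. All 3 erythroid lists had the larger share at overlapped sites and 6 of 8 other lists the smaller one. The erythroid lists were the shortest, and the gap was 17.6 points with lists of equal length. Against only other CTCF sites within 10 kb of a TAL1 site it was 7.16 points, a comparison added after seeing the data. Without the 2 Low Pass lists (CMP and GMP) it was 22.5 points (p = 0.0238, chosen after seeing the data). A check for lists far from the rest of their group covered the 4 groups with 4 to 10 lists and found none. These were TAL1 Pass, TAL1 Low pass, TAL1 Fail and CTCF Fail, so the check did not cover the primary lists.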

How the results depend on the processing

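The gap between erythroid and other primary lists was positive under every alternative run, at 20.8 to 23.7 points when 1 primary list was left out (exact permutation p of 0.0167 to 0.0444). Its size varied more under other settings. It was 7.16 points against only other CTCF sites within 10 kb of a TAL1 site and 14.6 in the strongest rank class. With a −log10 p of at least 10 it was 27.7 points. Means of 2 erythroid and 6 other cell types, chosen after seeing the data, gave 21.7 points with p = 0.0714, the smallest that design can give. With lists of equal length, also chosen after seeing the data, the difference over all 11 lists was 5.97 points (exact permutation p = 0.0312). With lists of full length, the planned split by rank gave −7 points among the weakest CTCF sites (p = 0.124). Leaving out 1 list gave 1.5 to 4.33 points. The difference in weak TAL1 lists was 1.14 to 1.76 points without 1 list (p of 0.0156 to 0.0703). It was 1.18 with CTCF in 11 of 14 lists, 0.973 with 50% overlap and 1.08 without the list with the CTCF antibody label. For the strongest sites it was 1.06 and for the weakest −1.34 (exact sign-flip permutation p = 0.0156). The difference in weak CTCF lists was 0.514 to 0.959 points without 1 list. It was 0.595 with CTCF in 11 lists, 1.2 with 50% overlap, 0.401 with a −log10 p of at least 10, 0.861 without the list with the CTCF antibody label and 1.47 away from promoters. It was −0.023 with TAL1 in 8 lists, −0.714 for the strongest and −1.55 for the weakest sites. The correlation with chromatin length was 0.188 with a −log10 p of at least 10 and 0.0501 over lists of at least 1000 peaks. The causes were not tested.

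An overlap of 50% of the shorter site left 136 sites (2.98% of TAL1 sites), of which 18.4% had middles within 100 bp and 33.1% a CTCF match. A −log10 p of at least 10 left 96 sites (3.56%), with 14.6% at promoters and 7.29% with middles within 100 bp. CTCF in 11 lists gave an overlap of 4.07%. The promoter share was 12.1% within 500 bp and 27.6% within 2000 bp. A CTCF match was found in 14.2% at a matrix p of 1e-05 and in 6.9% by the consensus. In place of the TAL1-GATA match, CTG with GATA 7 or 8 bases on was found in 23.7% and AGATAA alone in 48.7%. No paired analysis was possible because replicate numbers were given in accession order and tie no library of one group to one of another. The sign-flip tests pair overlapped with other sites within each list. Depth limits which weak peaks a list holds, and is unknown.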
